A study of Medicago truncatula with 6 samples.

Results

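The genes for the cleavage of sucrose, the transport sugar of plants, were followed in *Medicago truncatula* roots grown with and without the Mucoromycotina fungus *Gongronella* sp. w5. They were 5 of the 50443 genes in the deposited table, chosen by gene ID, and all 5 were among the 16905 genes with enough counts to be tested. MtCWInv1 (Medtr2g099950), MtCWInv2 (Medtr1g015980) and MtCWInv3 (Medtr8g017410) are named by the study as cell-wall invertases. Medtr5g042100 is annotated in its supplement as a putative arabinanase, levansucrase or invertase, and Medtr4g124660 is the sucrose synthase gene usually called MtSucS1, a name that stands in neither the table nor the supplement. MtCWInv2 and Medtr5g042100 also stand in the study's list of changed genes, which was made from these same libraries. A difference in those genes is therefore not independent of how they came to be considered.

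The roots with w5 (labelled CLG) were taken 16 days after inoculation, where they touched the mycelium, and the untreated roots without w5 (DZG) are the controls. For the control libraries neither the harvest day nor the part of the root taken is stated. Both groups were the A17 line and had 3 libraries, described as biological replicates, made from root total RNA with a stranded kit. The fungus was placed on a medium with glucose on one side of the plate, and the controls are described as plants grown alone on a medium without it. Whether the control plates also held the glucose medium is not stated, so the fungus and its medium cannot be told apart here. The libraries held between 6547753 and 6822646 counts with w5 and between 6983430 and 7539956 counts without it. Between libraries of the same group the chi-square of the counts was above what counting noise alone gives. It was 9.29 to 17.6 per gene with w5 and 16.8 to 29.4 per gene without it. No root marker list could be filled from the annotation at hand, so the tissue label was not checked. These are bulk libraries, in which fewer cells of a type and less RNA per cell cannot be told apart.

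Sucrose that reaches a root can be cleaved on either side of the plasma membrane. Cell-wall invertases hydrolyse it in the apoplast to glucose and fructose, which transporters then take into plant or microbial cells. Sucrose synthase works in the cytosol, where it converts sucrose and UDP to UDP-glucose and fructose in a reversible reaction, and it is a marker of strong sinks. In *M. truncatula* roots MtSucS1 is known from nodules and from roots with arbuscular mycorrhiza. Fructan exohydrolases, which remove fructose from fructans, are close relatives of cell-wall invertases, and sequence alone does not always tell them apart. MtCWInv2 is such a case, as the supplement describes it as a fructan exohydrolase under the enzyme class of invertase. The apoplastic and cytosolic labels used here follow from the gene names, and neither the place nor the activity of the proteins was measured.

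The 3 invertase transcripts are told apart in the study's own qRT-PCR by the following designed primers, shown because they mark which transcripts carry the names MtCWInv1, MtCWInv2 and MtCWInv3. Each is written from its 5′ end and no letter is singled out.
MtCWInv1 forward: tgtgtgggcccattcagcatca
MtCWInv1 reverse: tgctggtttgccacctggaagt
MtCWInv2 forward: ccctgatggagcaagctttggtg
MtCWInv2 reverse: tgtggctgagcctgagaagca
MtCWInv3 forward: acagtggccagttgtggaagttga
MtCWInv3 reverse: acttgtgctgctgtgacaccatt
In the supplement MtCWInv2 lies on chromosome 1, bases 4141021 to 4143821, and Medtr5g042100 on chromosome 5, bases 18517077 to 18518659, both on the minus strand. The sources used here do not name the build of these positions.

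Most of the genes differed more in level from one another than between the groups. The exception was the pair MtCWInv3 and MtCWInv2. In the controls MtCWInv3 was 1.27 to 1.67 times MtCWInv2, while MtCWInv2 was 2.33 times as high without w5 as with it. To compare genes with each other, the deposited FPKM were used, the fragments scaled by the length of the gene and by the total of the library. MtSucS1 had 900, 929 and 964 FPKM with w5 and 891, 1118 and 1338 FPKM without it. It ranked 17 among the 16905 tested genes by mean FPKM with w5 and 7 without it. Its counts were 0.347% to 0.371% of each library with w5 and 0.343% to 0.516% without it, so this single cytosolic gene was one of the major transcripts of the root.

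MtCWInv1 was the most abundant of the invertases followed here, with 109, 119 and 125 FPKM with w5 and 66.2, 102 and 118 FPKM without it. MtCWInv3 had 48.8, 29.3 and 21.5 FPKM with w5 and 36.8, 17.0 and 27.4 FPKM without it. MtCWInv2 had 10.1, 8.07 and 5.86 FPKM with w5 and 24.5, 10.2 and 21.6 FPKM without it. Medtr5g042100 was close to silent in roots, with 0.772, 1.02 and 0.663 FPKM with w5 and 3.94, 2.23 and 1.45 FPKM without it. The order MtSucS1, MtCWInv1, MtCWInv3, MtCWInv2 and Medtr5g042100 held inside each of the 6 libraries. With w5 no neighbours in that order overlapped in their levels. In the controls MtCWInv3 and MtCWInv2 overlapped, and the other neighbours did not.

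**Figure D1:**
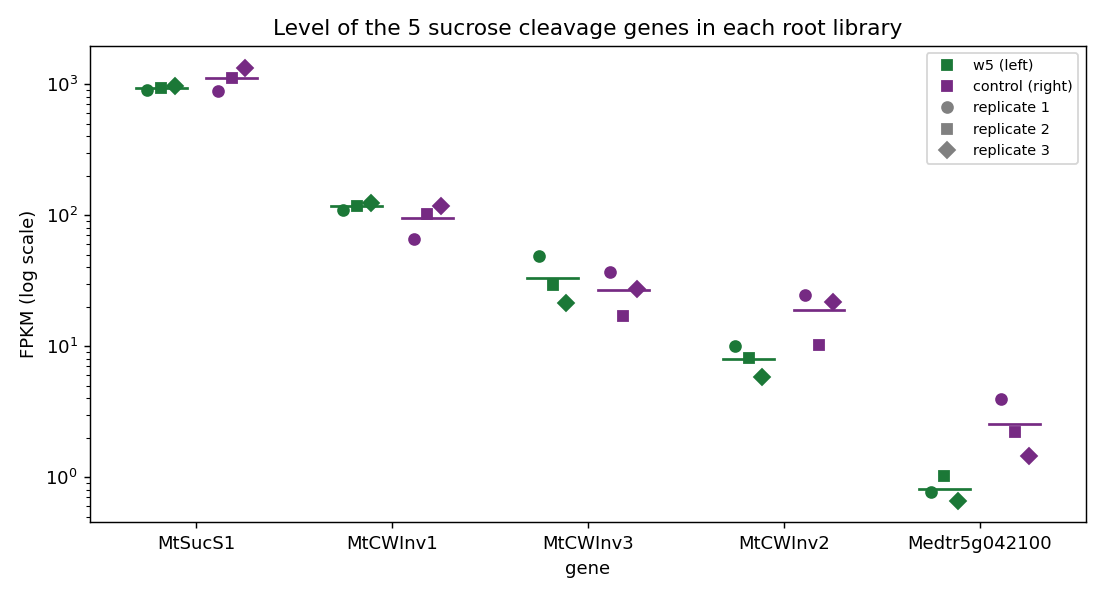
FPKM (log axis) of the 5 genes in each library, with w5 on the left (green) and control on the right (purple) of each pair, a symbol for each replicate number and a line at the group mean. MtSucS1 lies between 891 and 1338 FPKM, and only MtCWInv2 and Medtr5g042100 have all w5 libraries below all control libraries.

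MtCWInv2 and Medtr5g042100 were lower with w5, while the 95% intervals of the change in MtCWInv1, MtCWInv3 and MtSucS1 included 0. With edgeR's quasi-likelihood test 0 of the 5 genes had an adjusted p under 0.05, as against 0.0177% of all tested genes. With DESeq2 it was 1 of the 5 genes, as against 3.09% of all genes with an adjusted p there. At an unadjusted p under 0.05 in edgeR it was 2 of the 5 genes, as against 11.1% of all tested genes. At an unadjusted p under 0.05 with an absolute log2 fold change over 1, 2 of the 5 passed, both lower with w5. Of all tested genes 4.77% passed these thresholds in either direction and 2.73% passed them as lower. Both of these genes are in the study's list, so their count adds no independent support. The median log2 fold change of all tested genes was -0.0059. Levels are given below in CPM, the counts of a gene per 1000000 scaled counts of its library, and fold changes are w5 over control.

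MtCWInv2 had 19.6, 15.7 and 11.6 CPM with w5 and 47.4, 19.7 and 42.3 CPM without it. The means were 15.6 ± 3.98 CPM with w5 and 36.4 ± 14.8 CPM without it (SD, n = 3 each). All w5 libraries were below all control libraries, but w5 replicate 1 and control replicate 2 nearly touched, with 128 and 140 counts and 95% counting intervals of 107 to 152 and 118 to 165 counts. Groups that did not overlap were seen as lower in 9.04% and as higher in 7.02% of all tested genes, 16.1% in all. Its log2 fold change of -1.22 had a standard error of 0.34 and a 95% interval from -2.0 to -0.44, which is 0.429 times the control level. In edgeR the unadjusted p was 0.00649 and the adjusted p was 0.196. With DESeq2 the adjusted p was 0.0336, where 1.82% of its tested genes passed as lower, and with edgeR's exact test it was 0.0379. Over 15 alternatives the adjusted p lay between 0.0336 and 0.467. Without control replicate 1 the log2 fold change was -0.97, short of the fold threshold. The study also measured the cell-wall invertases by qRT-PCR in roots of the same harvest day. It reports MtCWInv2 as downregulated there, and MtCWInv1 and MtCWInv3 as basically unchanged. Whether the same RNA served for both methods is not stated.

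Medtr5g042100 had 8, 11 and 7 counts with w5 and 47, 25 and 16 counts without it. In CPM the means were 1.302 ± 0.281 with w5 and 4.01 ± 1.997 without it (SD, n = 3 each). The groups did not overlap, although the 95% counting interval of w5 replicate 2, 5.49 to 19.7 counts, reached into that of control replicate 3, 9.15 to 26.0 counts. Its log2 fold change of -1.61 had a standard error of 0.49 and a 95% interval from -2.74 to -0.48. In edgeR the unadjusted p was 0.0104 and the adjusted p was 0.234. The adjusted p lay between 0.0942 and 0.561 over the 15 alternatives. Without control replicate 1 the log2 fold change was -1.13, at an unadjusted p of 0.0644 from edgeR. The call at an unadjusted p under 0.05 was thus lost without this library.

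MtCWInv1 had 308, 335 and 359 CPM with w5 and 186, 288 and 335 CPM without it. Control replicate 1 was far below the other libraries, and the other 5 libraries lay between 288 and 359 CPM. The log2 fold change was 0.31 with a standard error of 0.22 and a 95% interval from -0.19 to 0.81, at an adjusted p of 0.700 in edgeR. The interval leaves out a doubling and a halving of this gene. Without control replicate 1 the value was 0.11, and without control replicate 3 it was 0.51.

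MtCWInv3 had 171, 103 and 76.4 CPM with w5 and 128, 59.1 and 96.2 CPM without it. The groups overlapped almost fully, and the highest library was 2.23 times the lowest with w5 and 2.16 times without it. The log2 fold change was 0.30 with a standard error of 0.35 and a 95% interval from -0.49 to 1.10, at an adjusted p of 0.851 in edgeR. A doubling lies inside this interval, so the data do not limit MtCWInv3 as closely as MtCWInv1. Without w5 replicate 1 the direction turned, with a log2 fold change of -0.065.

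MtSucS1 had 3473, 3586 and 3786 CPM with w5 and 3419, 4287 and 5194 CPM without it. The means were 3615 ± 158 CPM with w5 and 4300 ± 887 CPM without it (SD, n = 3 each). Control replicate 1 lay below all w5 libraries, and the other 2 control libraries lay above them. The log2 fold change was -0.25 with a standard error of 0.20 and a 95% interval from -0.70 to 0.20, at an adjusted p of 0.744 in edgeR. A halving or a doubling lies outside this interval. It was -0.38 without control replicate 1 and -0.080 without control replicate 3.

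**Figure D2:**
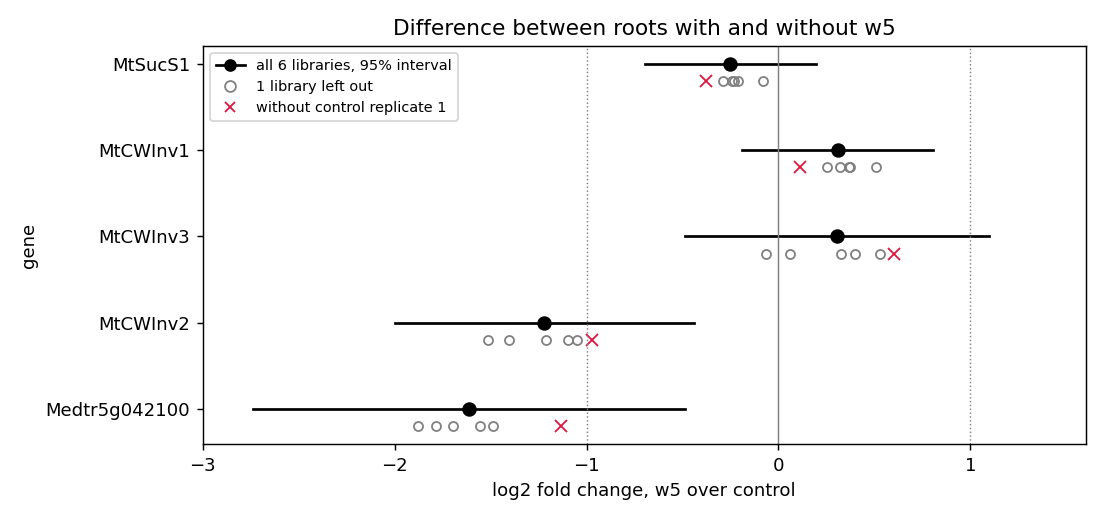
Log2 fold change of each gene, w5 over control, with the 95% interval from edgeR (black) and the value with 1 library left out (open circles, or a red cross without control replicate 1); dotted lines mark a log2 fold change of 1 in either direction. The intervals of MtCWInv2 (-2.0 to -0.44) and Medtr5g042100 (-2.74 to -0.48) leave out 0, and the red crosses lie closest to 0 for MtCWInv2, Medtr5g042100 and MtCWInv1.

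The control libraries were less alike than the w5 libraries in 4 of the 5 genes. Over the whole table they also tended to be less alike. The chi-square per gene between control libraries was 16.8 to 29.4, against 9.29 to 17.6 between w5 libraries. The larger spread of the controls is therefore not shown to be particular to these genes. The coefficient of variation of MtSucS1 was 4.37% with w5 and 20.6% without it, and that of MtCWInv1 was 7.54% with w5 and 28.3% without it. MtCWInv2 had 25.5% with w5 and 40.5% without it, and Medtr5g042100 had 21.6% with w5 and 49.8% without it. Only in MtCWInv3 was it larger with w5, with 41.7% against 36.4% without it. With 3 libraries a group these spreads are themselves uncertain, and their difference was not tested. Control replicate 1 was at the edge of its group in all 5 genes. In a group of 3 libraries only the middle one is not at an edge. How often this library was at an edge over all tested genes was not counted. It was the lowest control library in MtSucS1 and MtCWInv1 and the highest in MtCWInv2, MtCWInv3 and Medtr5g042100. On the log2 scale the spread within groups was 0.57 for MtCWInv3 and 0.55 for MtCWInv2, where the median of all tested genes was 0.30. It was 0.47 for Medtr5g042100, 0.32 for MtCWInv1 and 0.22 for MtSucS1.

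The ratio of the 3 cell-wall invertase transcripts followed here to MtSucS1, the only gene here for the cytosolic route, was higher with w5. The study counts more cell-wall invertase genes than these 3, so their sum covers only a part of the apoplastic route. The summed FPKM of MtCWInv1, MtCWInv2 and MtCWInv3 were 168, 156 and 152 with w5 and 127, 130 and 167 without it. As a percentage of the FPKM of MtSucS1 this was 18.7%, 16.8% and 15.8% with w5 and 14.3%, 11.6% and 12.5% without it. The means were 17.1% ± 1.46 with w5 and 12.8% ± 1.38 without it (SD, n = 3 each), and all w5 libraries were above all control libraries. No test is given for this ratio because it joins genes whose values were already known. Since 14.5% of the other tested genes also had a ratio to MtSucS1 that was higher in all w5 libraries than in all controls, the separation is not particular to the invertases. MtSucS1 transcripts exceeded the sum of the 3 invertases 5.89 ± 0.495 times with w5 and 7.88 ± 0.826 times without it (SD, n = 3 each), so MtSucS1 was the more abundant in all 6 libraries.

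Of the 3 invertases only MtCWInv1 had a ratio to MtSucS1 that did not overlap between the groups. Its FPKM were 12.1%, 12.8% and 12.9% of those of MtSucS1 with w5 and 7.43%, 9.16% and 8.81% without it. The groups did not overlap, although the 95% interval of the change included 0 for each gene by itself. A ratio to MtSucS1 that was higher in all w5 libraries was seen in 14.5% of the other tested genes. In the controls MtCWInv1 and MtSucS1 were both lowest in replicate 1 and both highest in replicate 3. MtCWInv3 was 5.42%, 3.16% and 2.23% of MtSucS1 with w5 and 4.13%, 1.52% and 2.04% without it, and these overlapped. MtCWInv2 was 1.12%, 0.868% and 0.608% of MtSucS1 with w5 and 2.75%, 0.909% and 1.61% without it, which also overlapped. Without MtCWInv2, whose annotation as an invertase is uncertain, the apoplastic sum was 16.2% ± 1.21 of MtSucS1 with w5 and 11.03% ± 0.460 without it (SD, n = 3 each).

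Within the apoplastic sum the shares of MtCWInv1 and MtCWInv3 overlapped between the groups, and that of MtCWInv2 did not. MtCWInv2 contributed 5.99%, 5.17% and 3.86% of the sum with w5 and 19.2%, 7.84% and 12.9% without it, which restates its own lower level. A CPM level lower in all w5 libraries than in all controls was seen in 9.04% of all tested genes. For a share of a sum no such background was counted. MtCWInv3 contributed 29.1%, 18.8% and 14.1% with w5 and 28.9%, 13.1% and 16.4% without it. MtCWInv1 contributed 64.9%, 76.0% and 82.0% with w5 and 51.9%, 79.0% and 70.7% without it. MtCWInv1 was the largest contributor in each of the 6 libraries.

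MtCWInv2 and MtCWInv3 had the same order of libraries inside each group, while their ratio differed between the groups. With w5 both were highest in replicate 1 and lowest in replicate 3, and among the controls both were highest in replicate 1 and lowest in replicate 2. The FPKM of MtCWInv3 were 4.86, 3.64 and 3.66 times those of MtCWInv2 with w5 and 1.502, 1.67 and 1.27 times without it. The means were 4.05 ± 0.696 with w5 and 1.48 ± 0.204 without it (SD, n = 3 each), so this ratio was steadier within groups than either gene. It was chosen after its values were seen and has no test. Among the other tested genes, 40.8% had a ratio to MtCWInv2 that was higher in all w5 libraries, so the shift of the ratio in itself is common. How many other genes keep as steady a ratio to MtCWInv2 within groups was not counted. The shared order is therefore not shown to be particular to this pair.

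**Figure D3:**
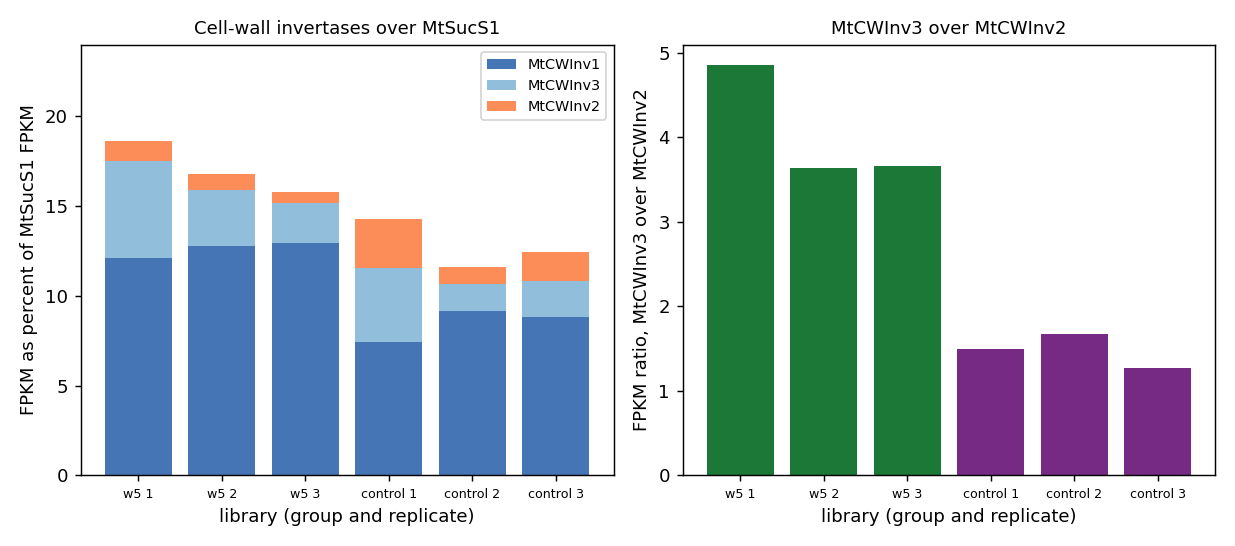
Left, FPKM of MtCWInv1, MtCWInv3 and MtCWInv2 as a percentage of the FPKM of MtSucS1 in each library, stacked; right, the FPKM of MtCWInv3 over those of MtCWInv2 in each library. The stacks reach 15.8% to 18.7% with w5 and 11.6% to 14.3% in controls, and the ratio on the right is 3.64 to 4.86 with w5 and 1.27 to 1.67 in controls.

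The genes whose profile over the 6 libraries was nearest to that of MtCWInv2 were sought among 11854 genes with a mean log2 CPM of at least 3, by the root mean square difference of log2 CPM after each gene's own mean was removed. The nearest was Medtr5g075220, annotated as a WNK kinase, a family of serine/threonine protein kinases, with a difference of 0.11 and a log2 fold change of -1.30. Next among the annotated genes were Medtr2g091250, a frigida-like protein (0.18), and Medtr4g099110, a beta-amylase, an enzyme that releases maltose from starch (0.20). The log2 fold change of the beta-amylase gene was -1.06. The difference of 0.11 was the smallest among all the genes searched. MtCWInv2 had 76 counts in w5 replicate 3, with a counting interval of 59.9 to 95.1 counts. A difference of 0.11 is smaller than this counting error, so these genes are not shown to follow MtCWInv2 closely. For Medtr5g042100 the nearest were Medtr4g069080, which encodes the cytochrome c biogenesis protein Ccs1 (0.085), Medtr2g013570, a phosphoglycerate mutase (0.14), and Medtr8g064610, a zinc-binding dehydrogenase (0.15). Only genes on the study's list of changed genes carry a description here, so all of these were picked on the same libraries. Medtr5g042100 itself had a mean log2 CPM of 1.33, below the floor of 3 set for the genes searched. Its 8 counts in w5 replicate 1 had a counting interval of 3.45 to 15.8 counts. A difference of 0.085 is smaller than this counting error, so its nearest genes are not shown to follow it closely.

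The same search gave no near annotated gene for MtSucS1 or MtCWInv1. The nearest were Medtr3g078613, an ARR3-like response regulator (0.45 from MtSucS1), and Medtr3g073670, a heavy metal transport protein (0.39 from MtCWInv1). Of the 11854 genes searched, 9296 genes without a description were nearer to MtSucS1 than that, and 5728 were nearer to MtCWInv1. These annotated genes are therefore not close in profile. Their log2 fold changes were -1.06 and 1.03, against -0.25 for MtSucS1 and 0.31 for MtCWInv1. Because only genes on the study's list of changed genes carry a description, the search could hardly find a near one. The lack of a near annotated gene therefore says nothing about MtSucS1 or MtCWInv1 themselves.

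**Figure D4:**
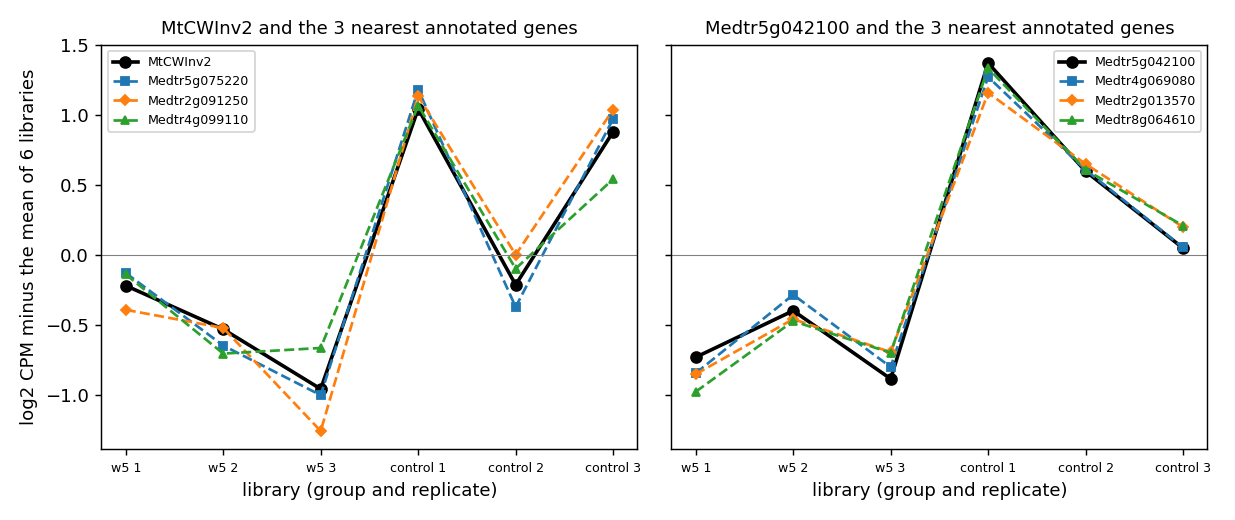
Log2 CPM minus the mean of the 6 libraries for MtCWInv2 (left) and Medtr5g042100 (right), black, with the 3 nearest annotated genes as dashed lines. MtCWInv2 and its neighbours dip in control replicate 2, and Medtr5g042100 and its neighbours are highest in control replicate 1.

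Genes of photosynthesis moved in the same direction as MtCWInv2 and Medtr5g042100. The study's list holds 44 genes described as photosystem, chlorophyll-binding, light-harvesting or ribulose proteins, of which 42 were tested and all 42 were lower past the thresholds above. The list was chosen on these libraries. Their sum was 2864, 2770 and 3525 CPM with w5 and 9836, 10043 and 5585 CPM without it. Inside the groups MtCWInv2 did not follow this order. Among the w5 libraries replicate 3 had the highest photosynthesis sum and the lowest MtCWInv2 level, and among the controls replicate 2 had both. For Medtr5g042100 the counts were too low to settle the whole order in either group. With w5 Medtr5g042100 was highest in replicate 2 and lowest in replicate 3. The sum was lowest in replicate 2 and highest in replicate 3. The 11 and 7 counts of Medtr5g042100 in these libraries had overlapping counting intervals, 5.49 to 19.7 and 2.81 to 14.4 counts. In the controls both were lowest in replicate 3, but Medtr5g042100 was highest in replicate 1 and the sum in replicate 2. Its counting intervals in control replicates 1 and 2, 34.5 to 62.5 and 16.2 to 36.9 counts, overlapped. That of control replicate 3, 9.15 to 26.0 counts, overlapped with replicate 2 but not with replicate 1. The part of photosynthetic tissue in either result was not tested.

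Lists of neutral invertases, sucrose synthases, sucrose-phosphate synthases, hexokinases and fructokinases, UDP-glucose pyrophosphorylases and invertase inhibitors found 0 genes in the annotation at hand, and the list of acid invertases found only MtCWInv2. Other members of these families are not analysed here. Sugar transporters with qRT-PCR primers in the study were held to an unadjusted p under 0.05 with an absolute log2 fold change over 1. In edgeR 1 of 2 tested SWEET genes and 0 of 5 tested SUT genes passed, as against 4.77% of all tested genes. The study reports MtSWEET15.3, the gene that passed, as the only upregulated SWEET gene in these same libraries. Its count therefore adds no independent support. The sugar transporter gene MtSWEET15.3 (Medtr7g405730) had 62, 79 and 13 counts with w5 and 4, 4 and 9 counts without it. Its log2 fold change of 3.25 had a standard error of 0.71 and an adjusted p of 0.107 in edgeR.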

How the data were processed

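The table deposited by the authors gives raw counts for each gene and library. It also gives FPKM, which the authors derived from the same counts (recalculated values differed by a relative 5.09e-15 at most). The methods name the *M. truncatula* genome database as the reference, but mm8, a mouse build, and Bowtie 0.12.2 stand in the submitters' processing notes. How reads were counted, with which strand setting and against which annotation is not given in the sources used here. Reads shared by close copies of a gene are therefore uncertain.

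Counts were analysed in R 4.3.3 with edgeR 4.0.16 over the 16905 genes kept by filterByExpr, with TMM scaling, robust quasi-likelihood estimation and Benjamini-Hochberg adjustment over all tested genes. Levels between genes were compared on FPKM and levels between groups on CPM. The spread within groups was taken on log2(CPM + 0.5), and profiles on log2 CPM with a prior count of 2. Alternatives used DESeq2 1.42.0, limma 3.58.1 (voom), edgeR's exact test, RLE, no scaling factors, TMM without photosynthesis genes, no filter, 1 CPM in 3 libraries, a block for the replicate number, and leaving out each library in turn. The procedure was tested on simulated data for the size and direction of log2 fold changes only, not for its p-values or intervals. Counting intervals are exact Poisson intervals and cover counting error only.

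The 5 genes and the lists were chosen with earlier results of these data known. The text names the 5 genes, the 3 lowest p in each pathway list (all empty beside the 5 genes), MtSWEET15.3, and up to 3 annotated genes nearest in profile. The reference table at hand matched none of the 5 gene IDs. Columns of the authors' own comparisons in the supplement were not used.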

Additional observations from a re-analysis of the deposited data

How the results depend on the processing

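At an adjusted p under 0.05, 0 of the 5 genes passed with edgeR's quasi-likelihood test, while 2 had an unadjusted p under 0.05. The number passing was 1 with DESeq2 and 1 with edgeR's exact test, in both cases MtCWInv2, with log2 fold changes of -1.21 and -1.22. The number past an unadjusted p under 0.05 with an absolute log2 fold change over 1 was 2 in all alternatives other than leaving out control replicate 1, where it was 0, and it ranged from 0 to 2 when libraries were left out in turn. MtCWInv3 turned to -0.065 without w5 replicate 1, and no other gene changed direction. With libraries left out in turn, the log2 fold change ranged from -1.51 to -0.97 for MtCWInv2 and from -0.065 to 0.60 for MtCWInv3. The apoplastic sum as a percentage of MtSucS1 was 12.9% with w5 and 9.42% in controls on CPM, which are not divided by gene length, and 11.03% in controls without MtCWInv2. The groups did not overlap in any of these settings. The deviations of same-numbered libraries correlated across groups at 0.23, -0.05 and -0.03 for replicates 1, 2 and 3. Pairs with different numbers ranged from -0.23 to 0.24. With 3 libraries a group these values cannot show whether same-numbered libraries were handled together. With the replicate number as a block, 0 genes passed at an adjusted p under 0.05 and 2 passed the p and fold thresholds, with a log2 fold change of -1.16 for MtCWInv2 (adjusted p = 0.149 from edgeR). With 7 to 47 counts a library, depth limits Medtr5g042100 most.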
